A study of Homo sapiens with 27 samples.

Results

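The 10 glutathione transferase genes GSTA1, GSTA2, GSTA4, GSTP1, GSTM3, GSTO1, GSTK1, MGST1, MGST2 and MGST3 were taken from a series of 27 expression arrays. The members were picked by gene symbol, with earlier results of these data known, and 22 of 49395 probe sets were annotated to them. The probe set with the highest mean over the 27 arrays stood for each gene, and the 10 genes were read within the 12386 genes tested. The arrays covered 3 human cancer cell lines: EBC-1, labelled as non-small cell lung cancer, MKN-45, labelled as gastric cancer, and HCC827, labelled as non-small cell lung cancer. Each line was given the solvent DMSO or 1 uM SGX-523, which blocks the receptor tyrosine kinase MET, for 24 h or 48 h, with 3 arrays labelled as biological replicates in each of the 9 groups. How long the DMSO cultures were kept is not labelled, and each line has 1 DMSO group that serves both treated times. EBC-1 and MKN-45 are known for MET amplification, the subject named in the series title, and HCC827 is known for an activating EGFR mutation. Each line is 1 established culture, so the replicates carry the spread within a line and not the spread among tumours.

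Glutathione transferases join the tripeptide glutathione to electrophilic molecules, which makes these easier to export, and several members also reduce lipid hydroperoxides. The soluble enzymes fall into classes named alpha (GSTA), mu (GSTM), pi (GSTP) and omega (GSTO), the kappa enzyme GSTK1 is found in mitochondria and peroxisomes, and the MGST proteins sit in membranes. Alpha class genes are abundant in liver and gut epithelium, and several family members are known targets of the oxidant-responsive factor NRF2.

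GSTA1, GSTA2 and GSTA4 lie on chromosome 6, in the order GSTA2, GSTA1, GSTA5, GSTA3 and GSTA4 among the alpha class genes there. GSTM3 and MGST3 lie on chromosome 1, MGST2 on chromosome 4, GSTK1 on chromosome 7, GSTO1 on chromosome 10, GSTP1 on chromosome 11 and MGST1 on chromosome 12. The promoters of 4 members are shown because GSTA1, GSTA2 and GSTA4 rose together in EBC-1 and MKN-45 while GSTP1 moved in opposite directions in these lines. Each window runs from 250 bases before to 50 bases after the RefSeq start site in GRCh38.p14 and reads in the direction of the gene. The GSTA1 window is chr6:52803767-52804066, the GSTA2 window chr6:52763426-52763725 and the GSTA4 window chr6:52995235-52995534, all on the minus strand, and the GSTP1 window is chr11:67583562-67583861 on the plus strand. In GSTA1 and GSTA2 capitals mark the bases at which these windows differ from each other. In GSTA4 and GSTP1 capitals mark motif matches.
GSTA1: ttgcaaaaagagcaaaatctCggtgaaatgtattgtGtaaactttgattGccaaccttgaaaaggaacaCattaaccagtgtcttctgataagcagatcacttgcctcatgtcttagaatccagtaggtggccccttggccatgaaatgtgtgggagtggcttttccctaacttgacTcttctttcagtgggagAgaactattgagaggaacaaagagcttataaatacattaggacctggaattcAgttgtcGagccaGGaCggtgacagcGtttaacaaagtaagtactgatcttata
GSTA2: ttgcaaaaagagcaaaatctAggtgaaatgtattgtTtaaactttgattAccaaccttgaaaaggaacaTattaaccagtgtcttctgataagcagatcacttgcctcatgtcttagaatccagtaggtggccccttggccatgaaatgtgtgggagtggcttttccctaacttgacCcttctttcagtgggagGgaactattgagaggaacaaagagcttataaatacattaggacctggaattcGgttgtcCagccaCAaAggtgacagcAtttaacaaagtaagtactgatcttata
GSTA4: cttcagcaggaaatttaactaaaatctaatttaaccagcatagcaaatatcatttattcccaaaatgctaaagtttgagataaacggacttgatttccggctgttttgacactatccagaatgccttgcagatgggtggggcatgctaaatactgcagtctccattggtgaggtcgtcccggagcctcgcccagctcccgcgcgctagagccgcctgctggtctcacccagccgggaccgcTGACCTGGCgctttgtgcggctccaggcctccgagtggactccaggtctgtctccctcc
GSTP1: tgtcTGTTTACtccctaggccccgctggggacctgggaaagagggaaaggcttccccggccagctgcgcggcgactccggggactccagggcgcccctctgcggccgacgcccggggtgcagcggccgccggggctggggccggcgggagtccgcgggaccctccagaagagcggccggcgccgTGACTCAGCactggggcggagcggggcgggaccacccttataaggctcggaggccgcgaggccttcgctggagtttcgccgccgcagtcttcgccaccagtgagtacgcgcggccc
The GSTA1 and GSTA2 windows carried the same base at 288 of 300 positions (96%) and differed at 12. Set beside the GSTA1 window without gaps, the GSTA4 window carried the same base at 71 of 300 positions (23.7%). Promoter windows were found for 9 of the 10 members, with 3 windows for MGST1 and no entry for MGST2. The search took 4 motifs on both strands. The antioxidant response element core TGACNNNGC, bound by NRF2, was in 13.3% of 35116 promoter windows, the AP-1 site TGACTCA in 4.95%, the HNF1 core GTTAAT in 6.88% and the forkhead core TGTTTAC in 3.42%. GSTA1 and GSTA2 each held 1 HNF1 core, on the strand opposite to the one printed, and none of the other motifs. GSTA4 held 1 antioxidant response element core. GSTP1 held a forkhead core and a stretch in which the AP-1 site and the antioxidant response element core overlap. GSTO1 held 2 antioxidant response element cores. HNF1 cores were in 2 overlapping MGST1 windows, and the third MGST1 window held 1 antioxidant response element core. The GSTM3, GSTK1 and MGST3 windows held none of the 4 motifs. These matches describe letters in the windows and show no binding.

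Values are log2 signal, on which a difference of 1 is a 2-fold change. Array medians were 5.02 to 5.14 in EBC-1 and MKN-45 but 5.71 to 5.73 in HCC827. Pairs of arrays within EBC-1 and MKN-45 shared a median of 1056 identical values, and an HCC827 array shared 163 with an array of the other lines, so the HCC827 arrays look as if normalized apart. Levels in HCC827 were therefore not tested against the other lines, and every response was taken within a line. The third 24 h array of HCC827 stood apart from its group, with a residual SD of 0.367 and an ACTB 3′ to 5′ log2 ratio of 3.40, against 2.24 to 2.29 in its group mates. That ratio, a sign of RNA or cRNA quality, was above every DMSO array on every treated array of each line, and 45 external control probe sets were higher by a median of 0.25 to 0.42 in treated EBC-1 and MKN-45. The part of these values in the results was not tested, and member differences near or below the shift are to be read beside it. Such differences include GSTP1, MGST1, MGST2, GSTO1 and GSTM3 in EBC-1, and MGST3 in EBC-1 at 48 h. In MKN-45 they include GSTP1 and MGST2, and MGST3 at 24 h. As a check of the drug, the MAP kinase phosphatase gene DUSP6 changed by -4.07 and -4.51 in EBC-1, by -6.26 and -5.27 in MKN-45 and by -0.47 and 0.30 in HCC827 at 24 h and 48 h, the last pair not called. Epithelial genes were above the array median on all arrays for 5 of 6 markers in EBC-1 (CDH1 was below), 6 of 6 in MKN-45 and 6 of 6 in HCC827. Of the gastric and intestinal markers 4 of 9 were above it in MKN-45 (TFF1, CDX2, CDH17 and VIL1), 3 of 9 in EBC-1 and 0 of 9 in HCC827, in each case on all arrays of the line. Of 6 hepatocyte markers 1 was above it in each line (APOA1 in EBC-1 and MKN-45, SERPINA1 in HCC827), and ALB, APOA2, TF and CYP3A4 were below it in all 3. Of 6 fibroblast markers 1 was above it in EBC-1 (LUM), 0 in MKN-45 and 1 in HCC827 (PDGFRB), and the collagens were below it in all 3. Of 6 leukocyte markers 2 were above it in EBC-1 (CD14 and CD68), 0 in MKN-45 and 1 in HCC827 (CD68), and PTPRC was below it in all 3. Of 7 lung markers 4 were above it in each line (NKX2-1, SFTPC, NAPSA and FOXJ1), gastric MKN-45 included. SCGB1A1 and SCGB3A2 were below it in all 3, so this list did not separate the lung lines. Of 4 squamous markers 0 were above it in EBC-1, 1 in MKN-45 (SOX2) and 0 in HCC827. DSG3 was below it in all 3, SOX2 in EBC-1 and HCC827, and KRT5 in EBC-1.

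In EBC-1, 7 of the 10 members were called at 24 h and 9 at 48 h, where a call is an adjusted p under 0.05 from limma with Benjamini-Hochberg adjustment over all 12386 genes. Of all genes 59.2% were called at 24 h and 61.6% at 48 h in this line. The members' count lay near this share at 24 h and above it at 48 h. That excess was not tested, and the members were chosen with earlier results of these data known. At 24 h 6 members rose and 1 fell, beside 31.2% and 28.1% of all genes, and at 48 h 8 rose and 1 fell, beside 32.8% and 28.9%. Without the third 24 h array of HCC827, GSTM3, MGST1 and MGST2 were also called in EBC-1 at 24 h (adjusted p = 0.0173, 0.00146 and 0.0196). In MKN-45 all 10 members were called at both times, 5 up and 5 down at each, beside 60.3% of all genes at 24 h (33.4% up and 26.9% down) and 62.6% at 48 h (36.4% up and 26.2% down). In HCC827 no member was called at 24 h, beside 0.0323% of all genes (4 genes, 0.0323% up and 0.00% down). At an unadjusted limma p under 0.05 there were 2 members, GSTA4 and GSTK1, beside 2610 of all genes. Leaving out the first 24 h array called those 2 members and leaving out the second called 3, MGST1 being the other, whereas without the third 24 h array, which stands apart, none was called. At 48 h 3 members rose and none fell there, beside 22.2% of all genes (11.6% up and 10.7% down). The median member difference was 0.47 and 0.39 in EBC-1, 0.13 and 0.21 in MKN-45 and 0.06 and 0.07 in HCC827 at 24 h and 48 h. The same medians over all genes were 0.04 and 0.07, 0.05 and 0.06, and -0.01 and 0.01.

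Groups did not overlap between treated and DMSO arrays for 9 of 10 members at both times in EBC-1, where 70.5% and 72.5% of all genes did not. They did not overlap for 10 of 10 at both times in MKN-45, where the shares were 70.3% and 72.0%. In HCC827 this held for 0 of 10 members at 24 h, with 12.3% of all genes, and 4 of 10 at 48 h, with 51.3%. 

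**Figure D1:**
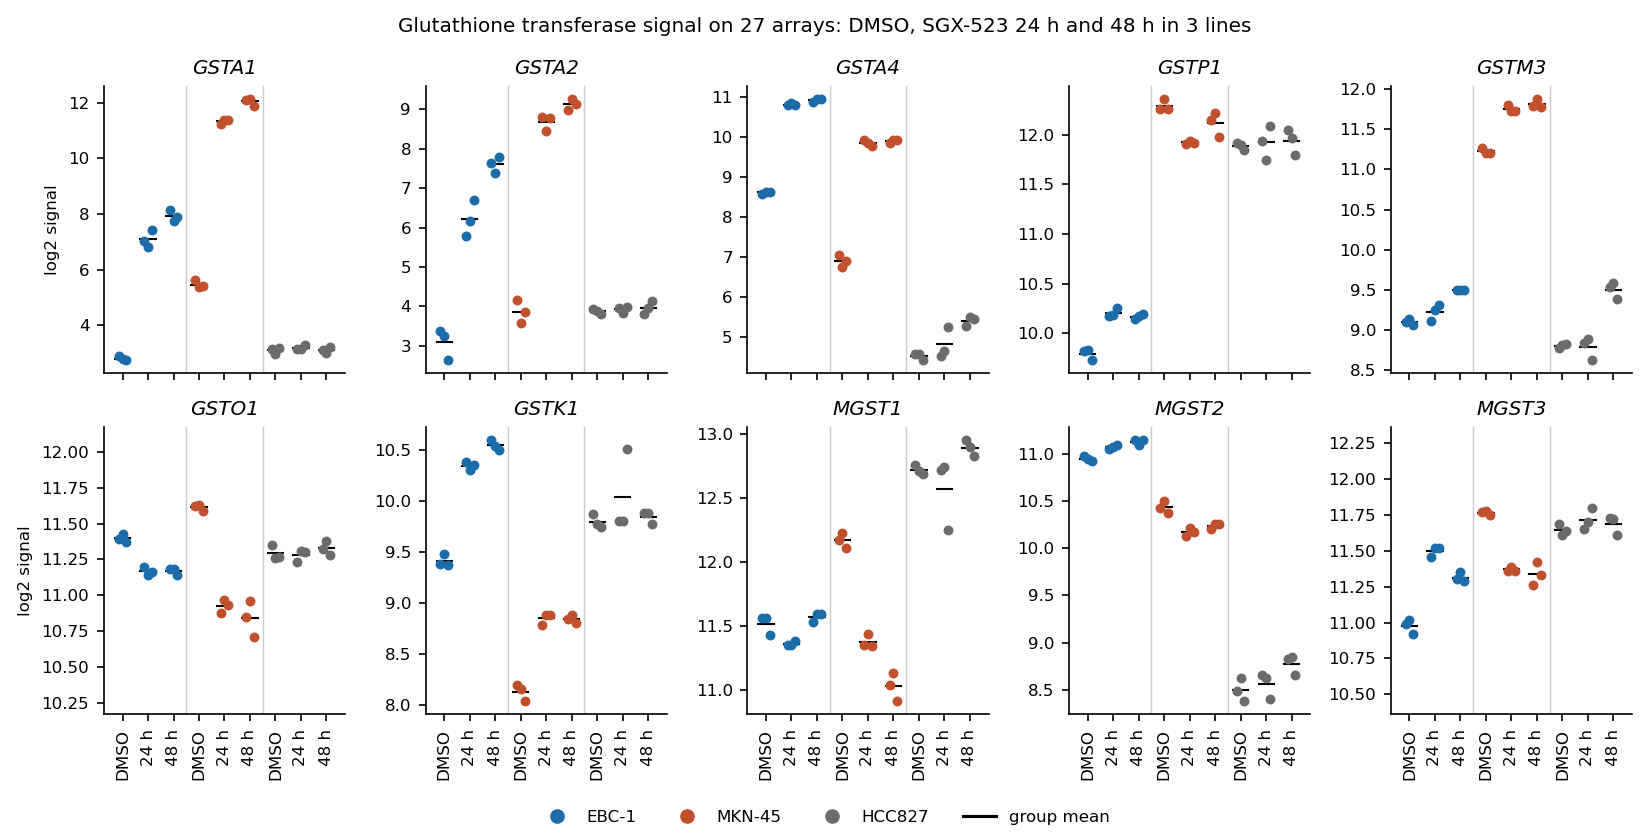
Log2 signal (y axis, a separate range for each gene) of the 10 genes on 27 arrays in 9 groups (x axis). Points are arrays, bars are means of 3 arrays, and colours are lines. GSTA1, GSTA2 and GSTA4 rose in EBC-1 and MKN-45, with GSTA1 reaching 12.04 in MKN-45 at 48 h and remaining at 3.11 in HCC827. HCC827 heights are not comparable with those of the other lines.

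GSTA1, the main alpha class transferase of liver, had the largest rise of the members in both EBC-1 and MKN-45. In EBC-1 its log2 signal was 2.89, 2.77 and 2.75 with DMSO, 7.03, 6.83 and 7.41 at 24 h and 8.13, 7.73 and 7.89 at 48 h. The MKN-45 arrays read 5.62, 5.36 and 5.41 with DMSO, 11.22, 11.39 and 11.38 at 24 h and 12.11, 12.13 and 11.89 at 48 h. The HCC827 arrays read 3.15, 2.96 and 3.17 with DMSO, 3.16, 3.14 and 3.29 at 24 h and 3.12, 3.02 and 3.20 at 48 h. The treated EBC-1 and MKN-45 arrays all lay far above their DMSO arrays, the 48 h arrays all lay above the 24 h arrays, and the HCC827 groups overlapped.
The EBC-1 rise was 4.29 ± 0.12 (SE, limma adjusted p = 1.19e-19) at 24 h and 5.11 ± 0.12 (adjusted p = 2.45e-21) at 48 h, which is 19.6-fold and 34.6-fold. The MKN-45 rise was 5.86 ± 0.12 (adjusted p = 4.48e-22) and 6.58 ± 0.12 (adjusted p = 4.03e-23), or 58.2-fold and 95.6-fold. In HCC827 the difference was 0.10 ± 0.12 (adjusted p = 0.605) and 0.02 ± 0.12 (adjusted p = 0.932). The measured MKN-45 rise exceeded the measured EBC-1 rise by 1.57 ± 0.17 at 24 h and 1.47 ± 0.17 at 48 h (limma contrast, adjusted p = 6.02e-08 and 1.28e-07).
The EBC-1 DMSO arrays lay near the level of 23 background control probe sets, whose array medians were 2.71 to 2.74 there, and the HCC827 arrays lay near that of their own, at 3.12 to 3.27. Single background probe sets ran from 2.07 to 9.69 on the EBC-1 DMSO arrays, so their medians are not an upper bound of background. A fold against a signal near background depends on the background. The EBC-1 rise may therefore be understated, and its contrast with MKN-45 ranks measured signals and not the change in RNA. In MKN-45 with DMSO GSTA1 was above the array median on all 3 arrays and 2.66 ± 0.12 above EBC-1 with DMSO (6.33-fold, adjusted p = 6.32e-16). A second GSTA1 probe set lay below the array median on all 27 arrays and showed differences of 0.09 and 0.36 in EBC-1 and 0.18 and 0.24 in MKN-45, so the rise rests on 1 of 2 probe sets.

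GSTA2, a close alpha class relative of GSTA1, also rose in EBC-1 and MKN-45. The EBC-1 arrays read 3.38, 3.26 and 2.64 with DMSO, 5.79, 6.17 and 6.70 at 24 h and 7.64, 7.39 and 7.80 at 48 h. MKN-45 signal was 4.17, 3.58 and 3.85, then 8.80, 8.44 and 8.77, then 8.98, 9.26 and 9.13. In HCC827 all 9 arrays lay between 3.80 and 4.14. Treated and DMSO arrays did not overlap in EBC-1 or MKN-45 and overlapped in HCC827.
The rise was 3.12 ± 0.19 (limma adjusted p = 5.2e-13) and 4.51 ± 0.19 (adjusted p = 2.93e-16) in EBC-1, and 4.81 ± 0.19 (adjusted p = 1.27e-16) and 5.26 ± 0.19 (adjusted p = 1.59e-17) in MKN-45. In HCC827 it was 0.05 ± 0.19 and 0.09 ± 0.19, neither called. GSTA2 reached the array median only on the 12 treated EBC-1 and MKN-45 arrays, so it entered the test through the groups in which it was high. GSTA1 reached it on 15 arrays and GSTA4 on 18, all in EBC-1 and MKN-45, and the other members reached it on all 27.
No probe set was annotated to a member and another gene, so GSTA1 and GSTA2 did not share 1. Both are read by probe sets of the kind marked as open to cross-hybridization, and the signals of the GSTA1 and GSTA2 probe sets had a Pearson r of 0.964 over 27 arrays, given without a test because the arrays share the drug response. How much RNA of each gene feeds the probe set of the other was not tested. From 24 h to 48 h GSTA2 rose by a further 1.39 ± 0.19 in EBC-1 (adjusted p = 1.73e-05) and GSTA1 by 0.82 ± 0.12 (adjusted p = 4.1e-05). In MKN-45 GSTA1 rose by a further 0.72 ± 0.12 (adjusted p = 1e-04), and GSTA2 differed by 0.45 ± 0.19 (adjusted p = 0.0946), without overlap of its 24 h and 48 h arrays. The GSTA2 difference was called with 16 added on the linear scale, in the separate fit and without the third 24 h array of HCC827 (adjusted p = 0.0172, 0.0122 and 0.0439). Whether the courses of the 2 genes differ was not tested.

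**Figure D2:**
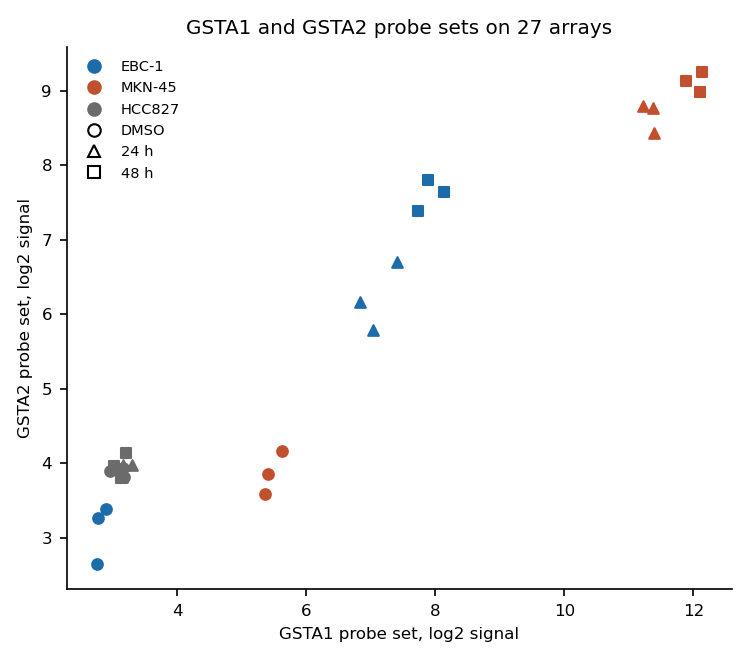
Log2 signal of the GSTA1 probe set (x axis) against that of the GSTA2 probe set (y axis) on 27 arrays, with colour for the line and shape for the treatment. The MKN-45 24 h and 48 h arrays sit at 11.22 to 12.13 for GSTA1, the EBC-1 ones at 6.83 to 8.13, and the 9 HCC827 arrays sit together at 2.96 to 3.29.

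GSTA4, the alpha class enzyme known for conjugating the lipid peroxidation product 4-hydroxynonenal, was above the array median on the DMSO arrays of EBC-1 and MKN-45 and below it on those of HCC827. In EBC-1 its signal was 8.56, 8.63 and 8.63 with DMSO, 10.78, 10.83 and 10.78 at 24 h and 10.86, 10.94 and 10.93 at 48 h. In MKN-45 it was 7.04, 6.74 and 6.90, then 9.92, 9.84 and 9.77, then 9.85, 9.91 and 9.91. HCC827 signal was 4.58, 4.58 and 4.42, then 4.53, 4.65 and 5.25, then 5.26, 5.50 and 5.44. The 24 h and 48 h arrays lay far above DMSO and close to each other in EBC-1 and MKN-45, and in HCC827 the 48 h arrays alone lay wholly above DMSO.
The EBC-1 rise was 2.19 ± 0.12 (4.57-fold, limma adjusted p = 2.65e-14) at 24 h and 2.30 ± 0.12 (4.93-fold, adjusted p = 8.48e-15) at 48 h. The MKN-45 rise was 2.95 ± 0.12 (7.73-fold, adjusted p = 9.27e-17) at 24 h and 7.99-fold (SE 0.12 on the log2 scale, adjusted p = 4.95e-17) at 48 h. From 24 h to 48 h the difference was 0.11 ± 0.12 (adjusted p = 0.654) and 0.05 ± 0.12 (adjusted p = 0.823). In HCC827 GSTA4 differed by 0.28 ± 0.12 (adjusted p = 0.216) at 24 h, and by 0.07 without the third array, which alone lay high. It rose by 0.87 ± 0.12 (1.83-fold, adjusted p = 6.16e-06) at 48 h, though from a signal below the array median on all 9 arrays. The 4 GSTA4 probe sets rose by 2.19 to 2.45 in EBC-1 and 2.62 to 3.09 in MKN-45, and differed by 0.42 to 0.87 in HCC827 at 48 h.

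GSTK1, the kappa class enzyme, rose in EBC-1 and MKN-45. In EBC-1 its signal was 9.38, 9.48 and 9.37 with DMSO, 10.38, 10.30 and 10.35 at 24 h and 10.59, 10.54 and 10.50 at 48 h. The MKN-45 arrays read 8.20, 8.16 and 8.04, then 8.79, 8.88 and 8.88, then 8.84, 8.88 and 8.81. In HCC827 it was 9.87, 9.77 and 9.74, then 9.80, 9.80 and 10.51, then 9.88, 9.88 and 9.77. No treated array overlapped DMSO in EBC-1 or MKN-45, and in HCC827 only the third 24 h array stood high.
The EBC-1 rise was 0.94 ± 0.11 (1.91-fold, limma adjusted p = 6.39e-08) and 1.13 ± 0.11 (2.19-fold, adjusted p = 2.25e-09). The MKN-45 rise was 0.71 ± 0.11 at both times (1.64-fold and 1.63-fold, adjusted p = 4.48e-06 and 4.73e-06). In HCC827 the difference was 0.24 ± 0.11 (adjusted p = 0.226) at 24 h, or 0.01 without the third array, and 0.05 ± 0.11 (adjusted p = 0.811) at 48 h. The other 2 GSTK1 probe sets lay below the array median on all 27 arrays.

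GSTM3, a mu class enzyme, rose in all 3 lines by 48 h. In EBC-1 its signal was 9.09, 9.13 and 9.06 with DMSO, 9.11, 9.25 and 9.31 at 24 h and 9.49 on all 3 arrays at 48 h. MKN-45 signal was 11.27, 11.21 and 11.20, then 11.81, 11.73 and 11.73, then 11.79, 11.88 and 11.78. The HCC827 arrays read 8.77, 8.81 and 8.82, then 8.83, 8.88 and 8.62, then 9.53, 9.58 and 9.38. MKN-45 arrays were all above DMSO by 24 h, while in the other 2 lines only the 48 h arrays were.
The EBC-1 difference was 0.13 ± 0.063 (limma adjusted p = 0.0837) at 24 h and GSTM3 rose by 0.40 ± 0.063 (1.32-fold, adjusted p = 5.09e-06) at 48 h. Without the third 24 h array of HCC827 the EBC-1 value at 24 h was called (adjusted p = 0.0173). The MKN-45 rise was 0.53 ± 0.063 (adjusted p = 7.39e-08) and 0.59 ± 0.063 (1.50-fold, adjusted p = 1.05e-08). In HCC827 it was -0.02 ± 0.063 (adjusted p = 0.874) at 24 h, and GSTM3 rose by 0.70 ± 0.063 (1.63-fold, adjusted p = 1.77e-08) at 48 h. The EBC-1 difference minus the HCC827 difference at 48 h was -0.30 ± 0.089 (adjusted p = 0.00637), which became -0.17 and lost its call (adjusted p = 0.116) with the mean of all GSTM3 probe sets that passed the filter, and the MKN-45 difference minus the HCC827 difference was -0.11 ± 0.089 (adjusted p = 0.314). That last value turned to 0.57 (adjusted p = 7.02e-06) with the same mean. The dimmer GSTM3 probe sets differed by 1.54 and 1.46, and by 0.64 and 1.16, in MKN-45, so the size of the rise depends on the probe set.

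GSTO1, the omega class enzyme known for thioltransferase and dehydroascorbate reductase activity, fell in EBC-1 and MKN-45. In EBC-1 its signal was 11.39, 11.43 and 11.37 with DMSO, 11.20, 11.14 and 11.16 at 24 h and 11.18, 11.18 and 11.14 at 48 h. In MKN-45 it was 11.62, 11.63 and 11.59, then 10.88, 10.97 and 10.93, then 10.85, 10.96 and 10.71. In HCC827 all 9 arrays lay between 11.23 and 11.38. The groups were separate in EBC-1 and MKN-45 and overlapped in HCC827.
The EBC-1 difference was -0.23 ± 0.047 (limma adjusted p = 0.000129) and -0.24 ± 0.047 (adjusted p = 0.000106), each 1.18-fold lower. The MKN-45 difference was -0.69 ± 0.047 (1.61-fold lower, adjusted p = 3.42e-12) and -0.77 ± 0.047 (1.71-fold lower, adjusted p = 3.26e-13). The HCC827 difference was -0.01 ± 0.047 and 0.04 ± 0.047, neither called. The fall was deeper in MKN-45 than in EBC-1 by 0.46 ± 0.066 at 24 h and 0.54 ± 0.066 at 48 h (limma contrast, adjusted p = 4.31e-06 and 2.87e-07).

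GSTP1, the pi class enzyme that is the main transferase of many tumours, moved in opposite directions in EBC-1 and MKN-45 at 24 h. In EBC-1 its signal was 9.82, 9.83 and 9.73 with DMSO, 10.17, 10.18 and 10.25 at 24 h and 10.14, 10.17 and 10.19 at 48 h. The MKN-45 arrays read 12.26, 12.36 and 12.26, then 11.91, 11.94 and 11.92, then 12.15, 12.22 and 11.98. HCC827 signal was 11.92, 11.90 and 11.85, then 11.94, 11.75 and 12.09, then 12.05, 11.97 and 11.80. The EBC-1 treated arrays lay above DMSO, the MKN-45 treated arrays below it, and the HCC827 groups overlapped.
GSTP1 rose by 0.41 ± 0.069 (1.33-fold, limma adjusted p = 1.33e-05) and 0.37 ± 0.069 (1.30-fold, adjusted p = 3.97e-05) in EBC-1. In MKN-45 it differed by -0.37 ± 0.069 (1.29-fold lower, adjusted p = 4.7e-05) at 24 h and by -0.18 ± 0.069 (1.13-fold lower, adjusted p = 0.0279) at 48 h. The call at 48 h was lost without the second DMSO array (adjusted p = 0.117) or the third 48 h array (adjusted p = 0.204). That call was kept without the third 24 h array of HCC827 (adjusted p = 0.00396). In HCC827 GSTP1 differed by 0.03 ± 0.069 and 0.05 ± 0.069, neither called. With DMSO GSTP1 was 2.50 ± 0.069 lower in EBC-1 than in MKN-45 (5.67-fold, adjusted p = 2e-20). A second, dimmer probe set differed in the same directions in EBC-1 and MKN-45, by 0.25 and 0.16 and by -0.23 and -0.21, but by 0.43 and 0.37 in HCC827.

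MGST1, a membrane-bound transferase of the endoplasmic reticulum and outer mitochondrial membrane, fell in MKN-45. Its signal there was 12.17, 12.23 and 12.11 with DMSO, 11.35, 11.44 and 11.34 at 24 h and 11.04, 11.13 and 10.91 at 48 h. In EBC-1 it was 11.56, 11.56 and 11.43, then 11.35, 11.35 and 11.38, then 11.53, 11.59 and 11.59. In HCC827 it was 12.76, 12.71 and 12.69, then 12.72, 12.74 and 12.25, then 12.95, 12.90 and 12.83. The MKN-45 arrays stepped down without overlap, and the third 24 h HCC827 array was the low one of its group.
The MKN-45 difference was -0.80 ± 0.081 (1.74-fold lower, limma adjusted p = 5.31e-09) at 24 h and -1.15 ± 0.081 (2.21-fold lower, adjusted p = 5.92e-12) at 48 h. From 24 h to 48 h MGST1 differed by -0.35 ± 0.081 in MKN-45 (adjusted p = 0.0023). The EBC-1 difference was -0.16 ± 0.081 (adjusted p = 0.0948) and 0.05 ± 0.081 (adjusted p = 0.604). Without the third 24 h array of HCC827, which adds to the spread shared by all groups, the EBC-1 value at 24 h was called (adjusted p = 0.00146). The HCC827 difference was -0.15 ± 0.081 (adjusted p = 0.286), or 0.01 without that array, and 0.17 ± 0.081 (adjusted p = 0.136), which was called without it (adjusted p = 0.00168). All 3 MGST1 probe sets showed the fall in MKN-45, with differences of -0.80 to -0.89 at 24 h and -1.15 to -1.37 at 48 h.

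MGST3, a membrane enzyme with glutathione peroxidase activity, also moved in opposite directions in EBC-1 and MKN-45. In EBC-1 its signal was 10.99, 11.02 and 10.92 with DMSO, 11.46, 11.52 and 11.52 at 24 h and 11.30, 11.35 and 11.29 at 48 h. MKN-45 signal was 11.77, 11.78 and 11.75, then 11.36, 11.39 and 11.36, then 11.26, 11.42 and 11.33. In HCC827 all 9 arrays lay between 11.61 and 11.80. Every treated EBC-1 array was above DMSO and every treated MKN-45 array below it.
MGST3 rose by 0.52 ± 0.044 (1.44-fold, limma adjusted p = 1.89e-10) and 0.34 ± 0.044 (1.26-fold, adjusted p = 3.42e-07) in EBC-1. It differed by -0.40 ± 0.044 (1.32-fold lower, adjusted p = 2.33e-08) and -0.43 ± 0.044 (1.35-fold lower, adjusted p = 5.93e-09) in MKN-45, and by 0.07 ± 0.044 and 0.04 ± 0.044 in HCC827, neither called. The response in EBC-1 minus that in MKN-45 was 0.92 ± 0.063 at 24 h and 0.77 ± 0.063 at 48 h (adjusted p = 1.48e-11 and 2.68e-10). The second MGST3 probe set differed by 0.52 and 0.31 in EBC-1 and by -0.49 and -0.51 in MKN-45.

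MGST2, a membrane enzyme with leukotriene C4 synthase activity, showed small differences. Its signal was 10.92 to 10.97 with DMSO, 11.05 to 11.09 at 24 h and 11.09 to 11.14 at 48 h in EBC-1. It was 10.37 to 10.50, then 10.13 to 10.21, then 10.20 to 10.26 in MKN-45, and 8.38 to 8.63, then 8.40 to 8.66, then 8.66 to 8.85 in HCC827. It differed by 0.13 ± 0.065 (limma adjusted p = 0.0884) in EBC-1 at 24 h and rose by 0.18 ± 0.065 (adjusted p = 0.0171) at 48 h. Without the third 24 h array of HCC827 the EBC-1 value at 24 h was called (adjusted p = 0.0196). In MKN-45 the difference was -0.26 ± 0.065 (adjusted p = 0.00106) and -0.19 ± 0.065 (adjusted p = 0.0121). In HCC827 it was 0.06 ± 0.065 (adjusted p = 0.573) at 24 h and MGST2 rose by 0.28 ± 0.065 (adjusted p = 0.00266) at 48 h. The EBC-1 call at 48 h was lost without the third DMSO array or the first 48 h array (adjusted p = 0.0512 and 0.0501). The MKN-45 call at 48 h was lost without the second DMSO array (0.0656), and the HCC827 call in a fit of that line alone (0.139). These calls at 48 h were kept without the third 24 h array of HCC827 (0.00144, 0.000838 and 3.41e-05 in that order of lines).

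**Figure D3:**
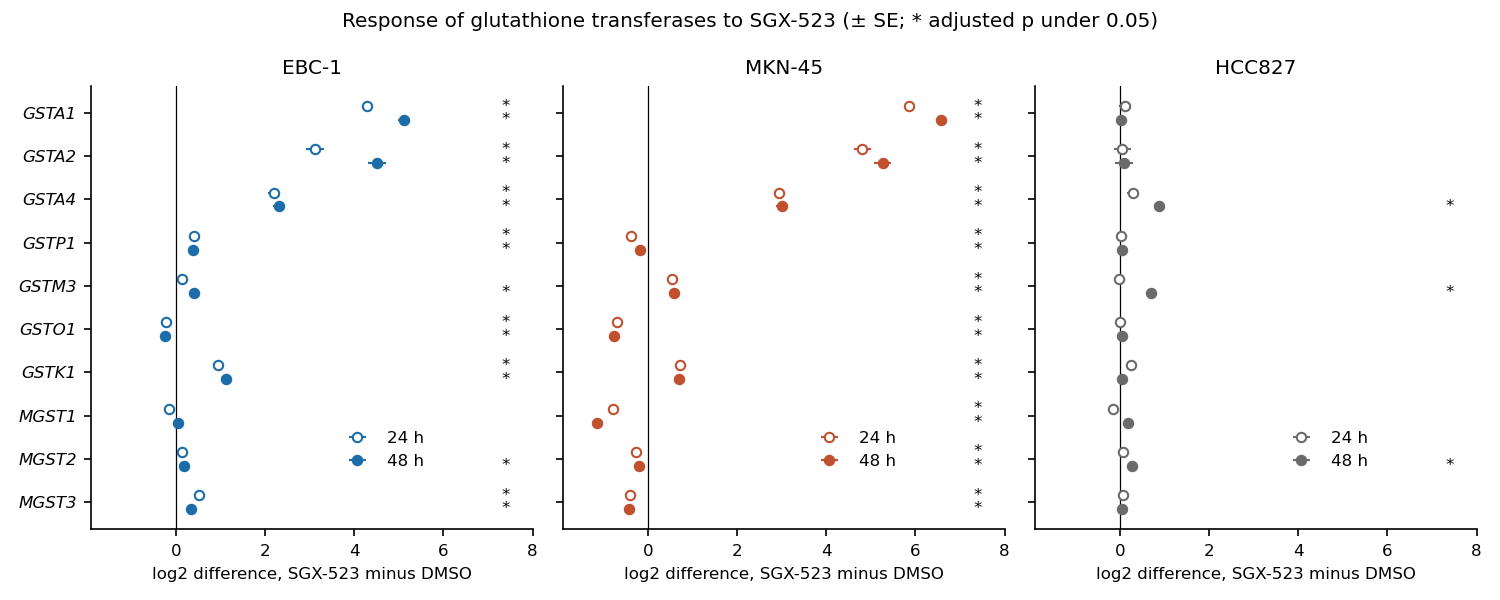
Log2 difference of SGX-523 minus DMSO (x axis, ± SE of the limma fit) for the 10 genes (y axis) in 3 lines. Open points are 24 h, filled points 48 h, and stars mark an adjusted p under 0.05. GSTA1, GSTA2 and GSTA4 lie between 2.19 and 6.58 in EBC-1 and MKN-45, and the highest HCC827 value is 0.87 for GSTA4 at 48 h.

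From 24 h to 48 h of SGX-523, 4 members were called in EBC-1 (11.1% of all genes), 3 in MKN-45 (24.3%) and 4 in HCC827 (26.5%). In EBC-1 these were the rises of GSTA1, GSTA2 and GSTM3 (0.27 ± 0.063, limma adjusted p = 0.00483) and the fall of MGST3 by 0.19 ± 0.044 (adjusted p = 0.00585). The GSTM3 value was 0.12 with the mean of its probe sets that passed the filter (adjusted p = 0.243). The MGST3 call was lost with quantile normalization (adjusted p = 0.0567). Without the third 24 h array of HCC827, GSTK1 (0.20) and MGST1 (0.21) were also called in EBC-1 (adjusted p = 0.00254 and 0.000379). In MKN-45 the called members were GSTA1, MGST1 and GSTP1 (0.19 ± 0.069, adjusted p = 0.0418). The GSTP1 call was lost when any of the 3 arrays at 24 h or the first or second at 48 h was left out. The adjusted p was then up to 0.207. It was 0.00422 without the third 24 h array of HCC827. In HCC827 the calls were the rises of GSTA4 (0.59 ± 0.12, adjusted p = 0.000647), GSTM3 (0.72 ± 0.063, adjusted p = 2.13e-08), MGST1 (0.32 ± 0.081, adjusted p = 0.00515) and MGST2 (0.22 ± 0.065, adjusted p = 0.0149). These HCC827 values rest in part on the third 24 h array. Without it they were 0.81, 0.64, 0.16 and 0.14, of which the last lost its call (adjusted p = 0.0589).

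The responses of the lines were compared directly by contrasts in the same fit. Between EBC-1 and MKN-45 9 of 10 members differed at 24 h and 9 at 48 h, beside 42.1% and 49.0% of all genes. The GSTA4 rise was larger in MKN-45 by 0.76 ± 0.17 and 0.70 ± 0.17. The measured GSTA1 and GSTA2 rises were also larger in MKN-45, but GSTA1 in EBC-1 DMSO lay near background and GSTA2 below the array median with DMSO in both lines, so these contrasts do not rank the lines by the change in RNA. By the same contrasts the responses of GSTP1, GSTO1, MGST1, MGST2 and MGST3, and not their levels, were lower in MKN-45. GSTK1 did not pass at 24 h (0.22 ± 0.16, limma adjusted p = 0.278) and GSTM3 at 48 h (-0.19 ± 0.089, adjusted p = 0.0798). Without the third 24 h array of HCC827, which is in neither contrast, both passed (adjusted p = 0.00552 and 0.0145). Both also passed in the separate fit (adjusted p = 0.0074 and 0.01) and with array weights (0.0198 and 0.0103). With the mean of all GSTM3 probe sets that passed the filter, the GSTM3 value was -0.74 (adjusted p = 1.85e-07). The 48 h contrast of GSTA2 (-0.75 ± 0.27, adjusted p = 0.0265) was lost with any of 5 arrays left out: the first or second EBC-1 DMSO array, the second EBC-1 48 h array, or the second MKN-45 DMSO or 48 h array (adjusted p 0.0635 to 0.0866), and with quantile normalization (adjusted p = 0.0827). The 48 h contrast of GSTK1 (0.43 ± 0.16, adjusted p = 0.0272) was lost with any of 6 left out: the first or the third EBC-1 DMSO array, the first EBC-1 48 h array, the first or second MKN-45 DMSO array or the third MKN-45 48 h array (adjusted p 0.051 to 0.0617). The third 24 h array of HCC827 is in neither of these 48 h contrasts. With it left out both kept their call (limma adjusted p = 0.0116 for GSTA2 and 2.13e-06 for GSTK1). Between EBC-1 and HCC827 7 members differed at 24 h and 8 at 48 h, beside 51.6% and 48.7% of all genes. Between MKN-45 and HCC827 10 differed at 24 h and 8 at 48 h, beside 52.7% and 51.1%. These contrasts reuse the response of each line, so they are not separate evidence.

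With DMSO alone all 10 members differed between EBC-1 and MKN-45, beside 67.6% of all genes. Of these 3 were higher in EBC-1 (33.6% of all genes) and 7 lower (34.0%). GSTA4 was higher in EBC-1 by 1.71 ± 0.12, GSTK1 by 1.27 ± 0.11 and MGST2 by 0.51 ± 0.065. GSTM3 differed by -2.13 ± 0.063, GSTA2 by -0.77 ± 0.19, MGST3 by -0.79 ± 0.044, MGST1 by -0.65 ± 0.081 and GSTO1 by -0.21 ± 0.047 (limma adjusted p from 7.92e-20 for GSTM3 to 0.00113 for GSTA2). GSTA2 with DMSO was below the array median in both lines, so its difference is between dim signals.

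The course of each member over the arrays was described by Pearson r after the mean of its line was subtracted, over 27 arrays that share treatment groups and DMSO arrays, and so with no test. GSTA1 had r of 0.99 with GSTA2, 0.967 with GSTA4, 0.886 with GSTK1 and -0.914 with GSTO1. GSTP1 had r of 0.838 with MGST3 and 0.0538 with GSTA1, and GSTO1 had r of 0.873 with MGST1. GSTM3 had r of 0.72 with GSTA4, and MGST2 had r of 0.612 with MGST1.
Outside the members and lists, the genes with the highest r to GSTA1 were PBLD (0.993), TUBA1A (0.993) and PTTG1IP (0.991). PBLD rose by 2.49 ± 0.063 and 2.70 ± 0.063 in EBC-1 and 3.23 ± 0.063 and 3.29 ± 0.063 in MKN-45, and differed by 0.03 and 0.10 in HCC827. GSTA2 was nearest to PLPP1 (0.984), USP12 (0.982) and PBLD (0.982), and GSTA4 to ATP5MC2 (0.990), PIK3R3 (0.990) and FAM149B1 (0.989). GSTK1 was nearest to CDK10 (0.974), PLXNB1 (0.971) and SURF1 (0.971), and GSTM3 to HGD (0.932), NOL4L (0.917) and CASK (0.901). GSTO1 was nearest to EMP1 (0.968), SLC1A5 (0.966) and TPI1 (0.962), and MGST1 to MYOF (0.958), PTGS2 (0.938) and RDX (0.936). GSTP1 was nearest to VEGFB (0.901), ANKZF1 (0.873) and TMBIM6 (0.873). MGST3 was nearest to KANK2 (0.953), SLCO4A1-AS1 (0.918) and ASL (0.906), and MGST2 to PDLIM5 (0.853), OPN3 (0.849) and PLAAT3 (0.839).

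The other genes of the pathway were read as lists, beside the shares of all genes given above. In HCC827 at 24 h the calls by unadjusted limma p under 0.05 were 2 of 7, 2 of 15, 3 of 13, 0 of 6, 4 of 20 and 3 of 17, in the order of the lists that follow. Of 16 further transferase and membrane-family genes 7 were tested. In EBC-1 4 rose and 1 fell at 24 h and 2 rose and 1 fell at 48 h, in MKN-45 2 rose at 24 h and 2 rose and 2 fell at 48 h, and in HCC827 none was called at 24 h and 3 rose at 48 h. GSTA3, an alpha class neighbour of GSTA1 known for its part in steroid synthesis, rose by 2.25 ± 0.11 and 2.36 ± 0.11 in EBC-1 (limma adjusted p = 5.56e-15 at 24 h) and by 0.32 in MKN-45 at 24 h, with 0.10 at 48 h not called. PTGES, the inducible prostaglandin E synthase, rose by 1.15 and 0.99 in EBC-1, and GSTZ1, which takes part in tyrosine breakdown, rose by 1.39 and 0.68 in MKN-45. GSTCD fell by 0.76 and 0.96 in EBC-1 and by 0.36 in MKN-45 at 48 h, and GSTO2, the relative of GSTO1, fell by 0.38 in MKN-45 at 48 h.

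Of 19 genes of glutathione synthesis and breakdown 15 were tested. In EBC-1 4 rose and 7 fell at 24 h and 4 rose and 6 fell at 48 h, in MKN-45 1 rose and 6 fell and then 2 rose and 6 fell, and in HCC827 none was called at 24 h and 3 rose and 1 fell at 48 h. GCLC, the catalytic subunit of the rate-limiting enzyme of glutathione synthesis, rose by 1.04 ± 0.083 and 1.51 ± 0.083 in EBC-1 and by 0.81 ± 0.083 and 1.09 ± 0.083 in MKN-45. SLC7A11, the cystine importer, fell by 1.24 and by 1.17 in EBC-1 and by 1.33 and 1.83 in MKN-45. CHAC2, a glutathione-degrading cyclotransferase, fell in all 3 lines, with -3.20 and -3.24 in EBC-1, -2.69 and -2.76 in MKN-45 and, at 48 h, -0.89 in HCC827. GSS, which completes glutathione, fell in both lines, with -1.28 and -1.24 in EBC-1 and -0.45 in MKN-45 at 48 h. The list median at 48 h was -0.03 in EBC-1 and -0.23 in MKN-45, with GCLC among the few called genes of its list that rose.

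Of 14 glutathione peroxidases, glutaredoxins and related enzymes 13 were tested. In EBC-1 4 rose and 9 fell at both times, in MKN-45 1 rose and 7 fell at 24 h and 2 rose and 9 fell at 48 h, and in HCC827 none was called at 24 h and 6 rose and 2 fell at 48 h. The list median at 48 h was -0.60 in EBC-1, -0.40 in MKN-45 and 0.07 in HCC827. GPX3, the secreted peroxidase, rose by 2.34 and 3.07 in EBC-1 with 0.15 and 0.19 in MKN-45, not called. GPX2, the gut-type peroxidase, rose by 1.39 at both times in EBC-1, fell by 1.52 and 2.46 in MKN-45 and rose by 1.44 in HCC827 at 48 h. GLRX, a glutaredoxin, fell by 1.43 and 1.50 in EBC-1 and rose by 0.77 and 0.56 in MKN-45, while its relatives GLRX2 (-1.02 and -0.96) and GLRX3 (-0.99 and -0.79) fell in both lines, as given for 48 h.
Of 7 transporters that export glutathione conjugates 6 were tested. In EBC-1 3 rose and 3 fell and then 3 rose and 2 fell, in MKN-45 3 rose and 2 fell and then 3 rose and 1 fell, and in HCC827 none was called at 24 h and 1 rose and 1 fell at 48 h. ABCC5 rose by 1.92 and 2.42 in EBC-1 and 1.36 and 1.72 in MKN-45. ABCC2, the apical conjugate pump, rose by 1.47 and 1.81 in EBC-1 and fell by 0.79 and 1.29 in MKN-45. ABCC4 did the reverse, with -1.75 and -1.95 in EBC-1 and 0.45 and 0.59 in MKN-45, and ABCC3 rose by 1.67 and 2.08 in MKN-45.

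Of 21 NRF2 targets outside glutathione metabolism 20 were tested. In EBC-1 12 rose and 4 fell at 24 h and 15 rose and 3 fell at 48 h. In MKN-45 6 rose and 8 fell and then 5 rose and 9 fell, and in HCC827 1 rose at 24 h and 7 rose and 1 fell at 48 h. The list median at 48 h was 0.52 in EBC-1, -0.10 in MKN-45 and 0.12 in HCC827. The aldo-keto reductase genes AKR1C2 (3.90 ± 0.24), AKR1C1 (2.83 ± 0.14) and AKR1C3 (1.93 ± 0.045) led the EBC-1 rises at 48 h. These 3 genes are close copies, so their probe sets may read each other. In MKN-45 ME1, malic enzyme, fell by 1.81 and 2.33 and the sulfiredoxin gene SRXN1 by 1.20 and 1.23, with SRXN1 also falling by 1.07 and 1.13 in EBC-1. TKT rose by 0.22 at 24 h and fell by 0.97 at 48 h in MKN-45. By the contrast of responses at 48 h, 16 of the 20 genes had a higher response in EBC-1 than in MKN-45 and none a lower one. Of all genes 19.6% were higher and 29.4% lower by this contrast. Whether NRF2 has a part in the changes of the members was not tested.

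Of 25 genes of factors known or thought to act on alpha class genes 17 were tested, and the HNF1 genes and HNF4A were not among them. In EBC-1 10 rose and 3 fell at 24 h and 11 rose and 3 fell at 48 h, in MKN-45 7 rose and 6 fell at both times, and in HCC827 none was called at 24 h and 6 rose and 2 fell at 48 h. CDX2, a transcription factor of intestinal epithelium, rose by 2.46 ± 0.11 and 3.06 ± 0.11 in EBC-1 and 1.94 ± 0.11 and 2.46 ± 0.11 in MKN-45, with -0.24 and -0.08 in HCC827, not called. FOXO3, a forkhead factor held back by AKT, rose by 1.86 and 1.84 in EBC-1 and 1.54 and 1.50 in MKN-45, with -0.09 and 0.07 in HCC827, not called. FOXA1 rose by 1.20 and 0.77 in EBC-1, by 2.52 and 2.57 in MKN-45 and by 0.47 in HCC827 at 48 h. FOS, an AP-1 subunit, fell by 6.77 and 6.22 in MKN-45, and NR0B2, a nuclear receptor without a DNA-binding domain, changed by -2.05 and -2.23 in EBC-1. The mean FOS signal was 9.58 with DMSO, 9.52 at 24 h and 8.95 at 48 h in EBC-1, and 5.35, 5.23 and 6.86 in HCC827. The mean NR0B2 signal was 6.44, 5.78 and 6.07 in MKN-45, and 4.99, 5.28 and 5.12 in HCC827. Whether any of these factors acts on the members was not tested.

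**Figure D4:**
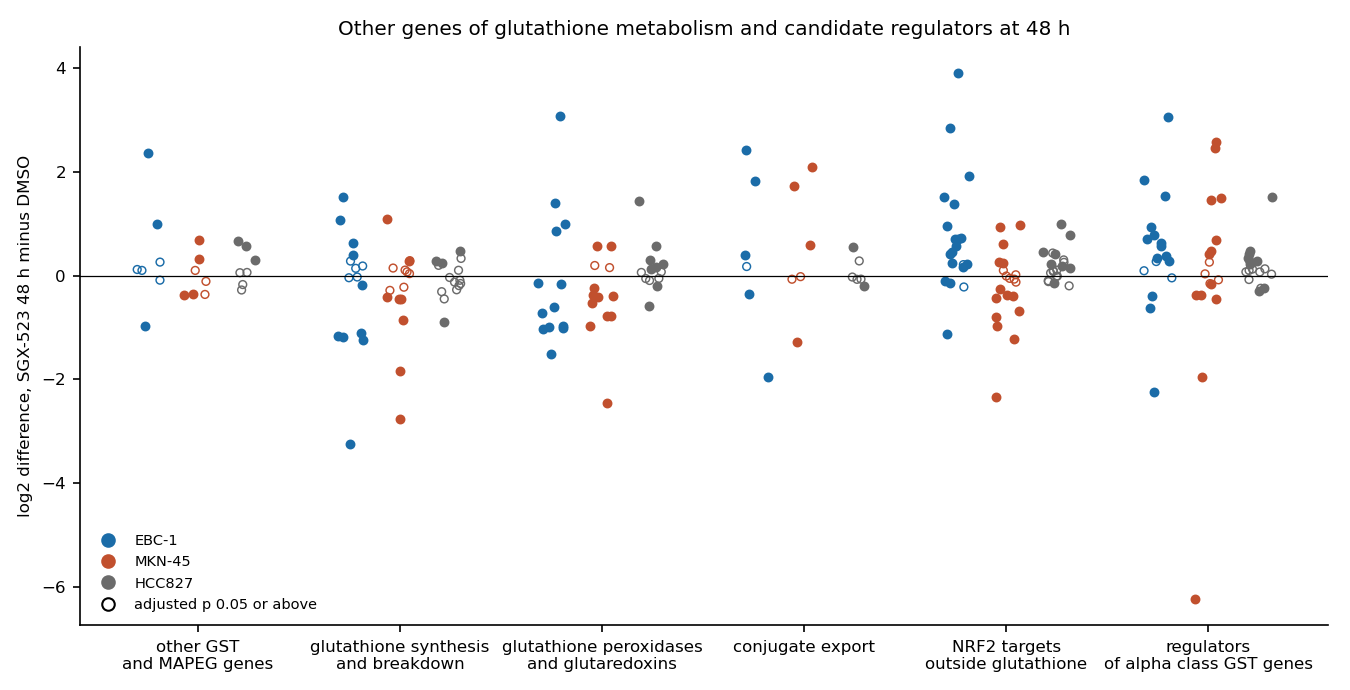
Log2 difference of SGX-523 at 48 h minus DMSO (y axis) for the tested genes of 6 lists (x axis) in 3 lines, coloured by line. Filled points passed an adjusted p of 0.05. The lowest point is FOS in MKN-45 (-6.22), and the highest is AKR1C2 in EBC-1 (3.90).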

How the data were processed

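The deposited values are log2 signal per probe set from Affymetrix 3′ expression arrays; that they are log2 was read from the values, and the submitters' processing notes name MAS5. Background correction, normalization and any pooling are not given in the sources used here. Total RNA was amplified and biotin-labelled per the labels' protocols. Of 49395 probe sets, 44988 carried 1 gene in the platform annotation, after 102 control probe sets were left out. Symbols were updated through Entrez IDs to RefSeq for 44961. A probe set was kept if it reached its array's median on at least 3 of 27 arrays (29684 kept), and each gene was represented by its brightest kept probe set, giving 12386 genes. All 10 members passed.

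Group means of the 9 groups were fitted with limma 3.58.1 in R 4.3.3 (lmFit, eBayes with an intensity trend, 18 residual degrees of freedom). Contrasts gave the 6 responses, the 48 h against 24 h differences, the differences of responses between lines and EBC-1 against MKN-45 with DMSO. P-values were adjusted by Benjamini-Hochberg over all genes, with 0.05 as threshold. Replicates are labelled biological, but separate cultures are not described, so p-values measure the spread between arrays. Some DMSO arrays carry other line names in 1 label than in their titles, and the titles were followed. The SE comes from this fit. Arrays give no counts, and 3 per group limit the precision. The script was tested on simulated data.

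The members and lists were chosen with earlier results of these data known. Named genes were all members, up to 3 called genes with the largest change at 48 h in EBC-1 and in MKN-45 from each list, the 3 genes most correlated with each member, and drug-response checks. Promoter sequences are from RefSeq, GRCh38.p14. Alternatives tried were quantile normalization, median centring, 16 added on the linear scale, no filter or one at the 75th percentile, no trend, separate fits, a replicate block, the mean of a gene's kept probe sets, array weights and leaving out arrays.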

Additional observations from a re-analysis of the deposited data

Results flagged for a closer look

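The responses of 2 lines differed for the following members by a limma contrast of the responses (adjusted p under 0.05), given as the log2 response of the first line minus that of the second. The contrasts share responses and DMSO arrays, so they are not separate evidence.

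GSTA1 differed by -1.57 at 24 h and -1.47 at 48 h for EBC-1 minus MKN-45, by 4.18 and 5.09 for EBC-1 minus HCC827, and by 5.76 and 6.56 for MKN-45 minus HCC827. For GSTA2 the same contrasts were -1.69 and -0.75, 3.07 and 4.42, and 4.76 and 5.17. GSTA4 gave -0.76 and -0.70, 1.91 and 1.43, and 2.67 and 2.12. GSTA1 lay near background with DMSO in EBC-1 and on all HCC827 arrays, and GSTA2 was below the array median with DMSO in every line, so the GSTA1 and GSTA2 values compare measured signals and do not rank the lines by the change in RNA. The GSTA2 value of -0.75 lost its call with any of 5 arrays left out (adjusted p 0.0635 to 0.0866) and with quantile normalization (0.0827).

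GSTK1 differed by 0.43 at 48 h for EBC-1 minus MKN-45, by 0.69 and 1.08 for EBC-1 minus HCC827, and by 0.47 and 0.66 for MKN-45 minus HCC827. The value of 0.47 lost its call without the first or the second 24 h array of HCC827 (adjusted p = 0.0519 and 0.0505) and was 0.70 without the third 24 h array. GSTO1, which fell, gave 0.46 and 0.54, -0.22 and -0.27, and -0.68 and -0.81 in that order. In GSTM3 the contrasts called were -0.40 at 24 h for EBC-1 minus MKN-45, -0.30 at 48 h for EBC-1 minus HCC827 and 0.55 at 24 h for MKN-45 minus HCC827. With the mean of all kept probe sets the value of -0.30 became -0.17 and lost its call (adjusted p = 0.116).

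GSTP1 differed by 0.78 and 0.55 for EBC-1 minus MKN-45, by 0.38 and 0.33 for EBC-1 minus HCC827, and by -0.41 at 24 h for MKN-45 minus HCC827. With the mean of all kept GSTP1 probe sets the EBC-1 minus HCC827 values were 0.095 and 0.056 and lost their calls (adjusted p = 0.692 and 0.828). MGST3 gave 0.92 and 0.77, 0.45 and 0.30, and -0.47 at both times. By the test of each line against its DMSO arrays, the responses of GSTP1 and MGST3 were opposite in sign in EBC-1 and MKN-45. The GSTP1 fall in MKN-45 at 48 h (-0.18) lost its call in several settings, such as quantile normalization (limma adjusted p = 0.263). MGST2 also had called responses of opposite sign at 48 h, 0.18 in EBC-1 and -0.19 in MKN-45. Both of these calls were lost in some settings. MGST1 differed by 0.64 and 1.20 for EBC-1 minus MKN-45 and by -0.65 and -1.32 for MKN-45 minus HCC827. MGST2 gave 0.39 and 0.38, and -0.32 and -0.47, for the same pairs of lines.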

How the results depend on the processing

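Of 3040 values of members under alternatives, 2940 kept their side of the threshold, 46 lost their call and 53 gained one. Another 1 reversed, that is, changed direction with a call. Changes of direction between values that were not called count among the 2940. MGST1 in HCC827 at 24 h was such a case, with -0.15 in the main fit and 0.01 without the third 24 h array. The reversal was GSTM3 in the MKN-45 minus HCC827 response at 48 h, 0.57 (limma adjusted p = 7.02e-06) with the mean of all kept probe sets against -0.11; the second kept GSTM3 probe set changed by 1.46 in MKN-45 and 0.22 in HCC827. In separate fits of each line the 48 h against 24 h comparison called 7 members in EBC-1 (4 in the fit of all groups) and 1 in HCC827 (4 in the fit of all groups, GSTA4, MGST1 and MGST2 being lost at adjusted p of 0.0746, 0.118 and 0.228). With 1 array left out, the members called in HCC827 at 24 h ranged from 0 to 3.

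The GSTP1 fall in MKN-45 at 48 h was lost with quantile normalization (-0.10, adjusted p = 0.263) and with the mean of its probe sets (0.194), and its EBC-1 rise at 48 h with the latter (0.0704). The MGST2 rise in EBC-1 at 48 h was lost with median centring (0.0911). The cause of the other changes was not tested. In HCC827 at 24 h the genes called over the whole array were 4, against 27 with quantile normalization, 1 without the filter, 0 without the trend, in the separate fit or with the mean of probe sets, 2393, 2674 and 20 without 24 h replicates 1, 2 or 3, and 0 and 1 without DMSO replicates 2 or 3. In HCC827 at 48 h they were 2754, against 1217 in the separate fit, 5465 with array weights and 4648 without the third 24 h array. From 24 h to 48 h they were 1371 in EBC-1, against 2829, 3046 and 2972 in that order. In MKN-45 they were 3007, against 4618 with array weights and 4918 without that array, and in HCC827 3286, against 1059 in the separate fit.

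Arrays with the same replicate number did not deviate together (correlations -0.197 to 0.159). With the replicate number as a block, the members called remained 7 and 9 in EBC-1, 10 and 10 in MKN-45 and 0 and 3 in HCC827, the GSTP1 change from 24 h to 48 h in MKN-45 lost its call (0.19, adjusted p = 0.0511), leaving 2 members there, and 1 gene over the whole array was called in HCC827 at 24 h. Signal near background limits what can be read of GSTA1 in EBC-1 DMSO and HCC827 arrays and of GSTA2 in all DMSO arrays. The HCC827 DMSO and treated levels cannot be set against the other lines.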
